A study of Homo sapiens with 6 samples.

Results

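Nucleotide synthesis and salvage enzymes were compared between growing and RASv12-expressing senescent human fibroblasts. The 9 genes were chosen by name: RRM1, RRM2, TYMS, TK1, DUT, DCK, DTYMK, CAD and IMPDH2. Every probe set annotated to any of them was used, which gave 14 of the 22215 probe sets and 9 of the 11963 named genes tested. Controls were 3 arrays of wild type WI-38, labelled growing fibroblasts. The other group was 3 arrays of WI-38 with RASv12 overexpression, labelled senescent fibroblasts. WI-38 is a normal diploid fibroblast strain from fetal lung, and RASv12 is a constitutively active RAS GTPase whose RAS gene the labels do not name. The protocol given for both groups describes retroviral gene transfer in 3% oxygen. The labels do not say whether controls received an empty vector, so infection and RASv12 cannot be told apart. They also list Cy5 for controls and Cy3 for RASv12 samples. The arrays are single-colour Affymetrix arrays, so how these dyes were used is unclear. If the groups did differ in dye, that difference could not be told apart from RASv12.

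Cells make nucleotides de novo from small precursors or recover them from bases and nucleosides by salvage. CAD carries the opening steps of pyrimidine synthesis, and IMPDH2 the step that commits purines to guanine nucleotides. Ribonucleotide reductase, built from the large subunit RRM1 and the small subunit RRM2, turns ribonucleotides into deoxyribonucleotides. TYMS makes thymidylate from dUMP, DUT breaks down dUTP and so supplies that dUMP, TK1 and DCK phosphorylate deoxynucleosides taken up by the cell, and DTYMK adds the next phosphate to thymidylate. Most of the genes for deoxynucleotide supply are textbook E2F targets that are expressed around S phase, and this supply is held low in cells that have left the cycle.

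In RASv12 cells 8 of the 9 genes fell and none rose, beside 14.8% of all named genes called lower, 13.0% called higher and 27.7% called in either direction (limma, Benjamini-Hochberg adjusted p under 0.05 across the 22215 probe sets). On their brightest probe sets TYMS, RRM2, DUT and RRM1 fell by 1.64 to 2.81 on the log2 scale, DTYMK by 0.93 and IMPDH2 by 0.48. TK1 and DCK fell to the level of background, so that their falls are bounds. CAD did not pass. Of the 14 probe sets 12 fell and none rose, beside 13.0% called lower, 11.3% called higher and 24.3% called either way over all probe sets. The median log2 change over the 9 genes was -1.64, beside 0.02 over all named genes. Changes are on the scale of log2(intensity + 16) after quantile normalization, which understates those of dim genes, and errors of changes are standard errors with 3 arrays in each group.

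The promoters of the genes that fell most are shown first. E2F and NF-Y are textbook regulators of S phase genes, and their part in these falls was not tested. RefSeq promoter windows on GRCh38.p14 were found for 8 of the 9 genes, 13 windows in all, each from 250 bases before to 50 after an annotated start. The windows were searched on both strands for an E2F site written as TTCCCGC, which is one common form, or as its variants, which are written TTGGCGC or else with the middle changed as in TTCGCGC, together with the NF-Y box, which is written CCAAT. The 250 upstream bases are printed 5′ to 3′ on the gene's strand, with E2F and NF-Y matches in capitals, where GCGGGAA is the first E2F form seen from the opposite strand, while ATTGG is likewise an NF-Y box. No E2F match overlapped an NF-Y match. They lie at chr18:657403-657652 on the plus strand for TYMS, chr17:78187053-78187302 on the minus strand for TK1, chr15:48331947-48332196 on the plus strand for the most downstream of 4 DUT starts and chr2:10122489-10122738 on the plus strand for the downstream RRM2 start. CAD, at chr2:27217119-27217368 on the plus strand, is printed as the member that did not pass.
TYMS: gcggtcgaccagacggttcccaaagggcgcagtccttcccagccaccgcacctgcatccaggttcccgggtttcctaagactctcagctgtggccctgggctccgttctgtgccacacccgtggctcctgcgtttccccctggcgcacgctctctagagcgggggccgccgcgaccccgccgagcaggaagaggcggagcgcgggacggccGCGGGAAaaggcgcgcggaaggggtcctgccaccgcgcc
TK1: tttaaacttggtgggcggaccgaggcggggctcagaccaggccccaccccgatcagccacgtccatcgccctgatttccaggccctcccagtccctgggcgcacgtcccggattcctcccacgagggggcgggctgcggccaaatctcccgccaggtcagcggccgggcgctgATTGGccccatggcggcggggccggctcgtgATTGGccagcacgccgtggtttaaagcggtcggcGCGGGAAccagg
DUT: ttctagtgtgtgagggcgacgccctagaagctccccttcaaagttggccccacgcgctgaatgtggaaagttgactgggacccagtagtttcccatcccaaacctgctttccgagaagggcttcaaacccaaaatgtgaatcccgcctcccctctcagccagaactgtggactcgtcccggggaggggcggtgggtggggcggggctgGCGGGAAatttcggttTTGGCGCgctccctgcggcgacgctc
RRM2: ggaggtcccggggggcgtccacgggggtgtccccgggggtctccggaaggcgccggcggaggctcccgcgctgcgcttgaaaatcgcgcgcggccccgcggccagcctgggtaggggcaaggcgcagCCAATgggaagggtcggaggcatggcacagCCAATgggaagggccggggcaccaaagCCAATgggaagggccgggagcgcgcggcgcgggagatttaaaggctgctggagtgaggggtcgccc
CAD: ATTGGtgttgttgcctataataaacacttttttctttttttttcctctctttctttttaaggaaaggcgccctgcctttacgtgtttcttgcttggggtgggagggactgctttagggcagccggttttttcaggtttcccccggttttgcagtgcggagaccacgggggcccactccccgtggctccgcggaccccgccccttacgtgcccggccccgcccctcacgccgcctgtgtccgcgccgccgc

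An E2F form was found in 6 of the 13 windows and in at least 1 window of 6 genes (RRM1, RRM2, TYMS, TK1, DUT and DCK), beside 11.0% of all 35116 windows and 13.8% of the 22199 windows of protein-coding genes. Distances run from the leftmost base of the match to the start. The TK1 match lay 12 bases before the start, the TYMS match 39, and the downstream DUT window held an E2F match 42 bases and a second one 26 bases before the start. In DCK the search found 3 E2F matches, and in RRM2 a single match, in the upstream window. CCAAT was found in 6 of the 13 windows, beside 34.6% of all windows. The downstream RRM2 window held 3 copies, 123, 93 and 66 bases before the start, TK1 held 2 and DTYMK 2. CAD had no E2F form and a single CCAAT, at the far end of its window, 250 bases before the start. DTYMK, which fell, had no E2F form either, and no window was found for IMPDH2, which also fell. The DUT windows not printed held neither an E2F form nor CCAAT. The E-box, written CACGTG, was found in DCK alone among these windows, beside 7.26% of all windows. The Sp1 form GGGCGG was found in 10 of the 13 windows, beside 45.0% of all windows and 56.3% of those of protein-coding genes. TTTGAA, the CHR form, was found in 2 and TATAAA in 1, beside 15.2% and 11.5% of all windows. In windows of these genes G and C made up 55.7% to 78.3% of bases, and their share in other windows was not computed. A match is a description of the letters, and whether a factor bound there was not measured.

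**Figure D1:**
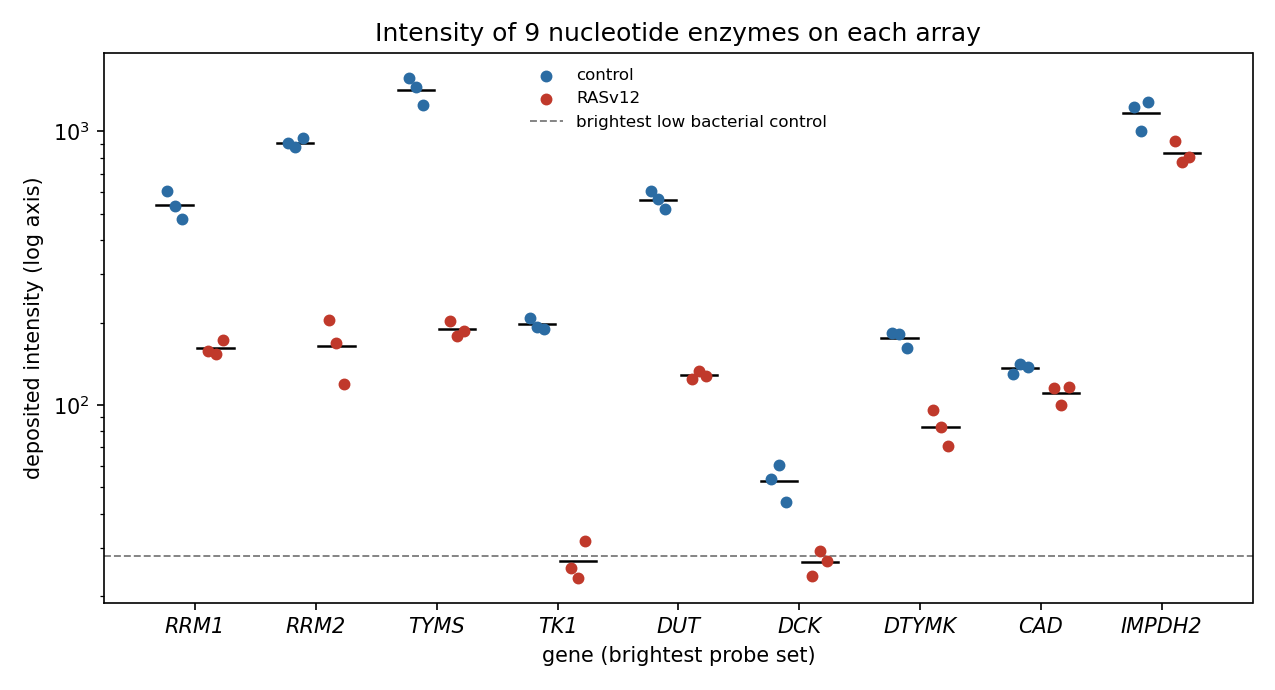
Deposited intensity (log axis) of the brightest probe set of each gene on the 3 control arrays (blue) and the 3 RASv12 arrays (red), with group means as black lines. For every gene the RASv12 points lie below the control points, and for TK1 and DCK they sit close to the dashed line, the brightest low bacterial control at 27.98.

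Ribonucleotide reductase fell in both subunits. RRM1 read 606, 534 and 476 on the control arrays and 158, 153 and 172 on the RASv12 arrays, each in the order of replicates 1, 2 and 3, as for all values that follow. It fell by 1.64 ± 0.12 (SE, n = 3 per group) on the log2 scale, with limma adjusted p = 1.8e-04. All RASv12 arrays lay below all control arrays, as they did for 9 of the 9 genes, beside 21.6% of all named genes with RASv12 below and 21.4% with RASv12 above. After normalization this held for 14 of the 14 probe sets, beside 20.0% of all probe sets below and 19.5% above. On the deposited intensities it held for 13. The exception was the dimmer TYMS probe set, which was under the low bacterial controls on all arrays. A dimmer RRM1 probe set fell by 1.2 (adjusted p = 0.0057).

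RRM2, the subunit whose level sets the enzyme's activity through the cycle, read 902, 876 and 946 in control cells and 204, 169 and 119 in RASv12 cells. It fell by 2.4 ± 0.18 with limma adjusted p = 2.0e-04. The 3 RASv12 arrays were further apart from each other than the control arrays, with a coefficient of variation of 26.1% against 3.9%. Its other probe set read 453, 424 and 354 in control cells and 123, 151 and 69 in RASv12 cells, a fall of 1.76 ± 0.26 (adjusted p = 0.0037). RASv12 replicate 3 was the lowest array on both RRM2 probe sets.

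TYMS, DUT and DTYMK, which make thymidylate, supply its dUMP or phosphorylate it further, all fell. TYMS, the target of fluoropyrimidine drugs, read 1565, 1453 and 1243 in control cells and 202, 179 and 187 in RASv12 cells. This fall of 2.81 ± 0.12 (limma adjusted p = 2.1e-05) was a ratio of 7.47 between the geometric mean intensities. The groups were far apart, and the coefficient of variation between RASv12 arrays was 6.13%. A further TYMS probe set was at or under the brightest low bacterial control on all 6 arrays and did not pass (adjusted p = 0.34). The mean of both probe sets passed at -1.63, beside -2.30 for TK1, -2.08 for RRM2 and -1.80 for DUT in the same setting. In RefSeq the TYMS gene overlaps ENOSF1 and TYMSOS, and whether the probe sets read overlapped parts was not tested.

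DUT was read by 3 probe sets, and all 3 fell. The brightest, whose suffix x marks probes that can also match other transcripts, read 603, 565 and 519 in control cells and 124, 133 and 128 in RASv12 cells. It fell by 2 ± 0.1 (limma adjusted p = 3.6e-05), with no overlap and a spread of 3.27% between the RASv12 arrays. A slightly dimmer one read 502, 479 and 491 against 71.9, 94.9 and 95.1, a fall of 2.28 ± 0.11 (adjusted p = 3.1e-05). The dimmest read 97.7, 80.9 and 84.4 against 17.7, 34.3 and 42.3 and fell by 1.11 ± 0.17 (adjusted p = 0.0041), with 1 of its 3 RASv12 arrays within the low bacterial controls.

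DTYMK, the kinase that TYMS and TK1 both feed, read 183, 182 and 162 in control cells and 95.8, 83.2 and 70.5 in RASv12 cells. It fell by 0.93 ± 0.13 (limma adjusted p = 0.0032), beside 2.81 for TYMS and 2.30 for TK1, a difference between genes that was not tested, and its groups did not overlap.

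**Figure D2:**
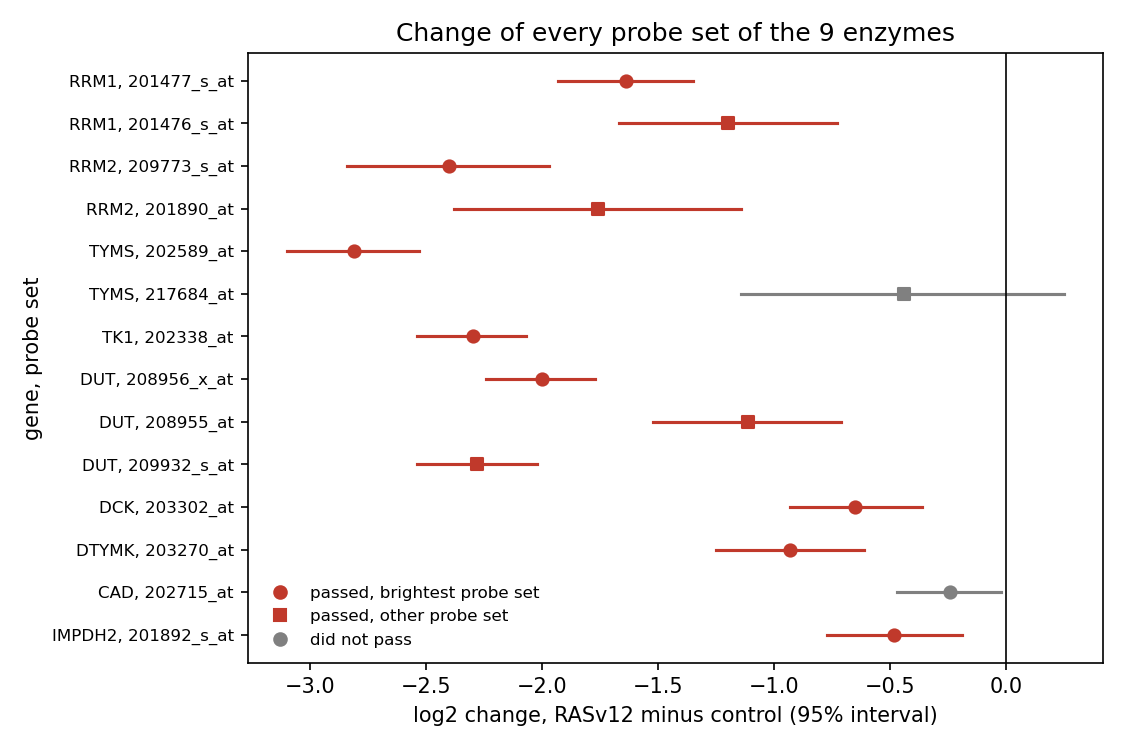
Log2 change (RASv12 minus control, limma) of all 14 probe sets of the 9 genes, with 95% intervals. Circles mark the brightest probe set of a gene and squares the others, red where the adjusted p passed and grey where it did not. Of the 14 probe sets 12 fell, and the dim TYMS probe set and CAD did not pass.

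The salvage kinases fell to levels close to background in RASv12 cells. TK1, which recovers thymidine in the cytosol, read 208, 193 and 190 in control cells and 25.4, 23.4 and 31.8 in RASv12 cells, where 1 of 3 arrays was above the low bacterial controls. It was at least 6.74-fold lower, counting values under those controls at their level (limma log2 change -2.3 ± 0.099, adjusted p = 2.1e-05). DCK, which phosphorylates deoxycytidine and many nucleoside drugs, read 53.7, 60.2 and 44.2 in control cells. In RASv12 cells it read 23.7, 29.2 and 26.9, again with 1 of 3 arrays above those controls. It was at least 1.84-fold lower (log2 change -0.65 ± 0.12, adjusted p = 0.0087). Both kinases were above background on all control arrays and showed no overlap between groups.

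IMPDH2 and CAD, the members in de novo ribonucleotide synthesis, had log2 changes of -0.48 and -0.24. IMPDH2 read 1229, 1001 and 1275 in control cells and 918, 770 and 803 in RASv12 cells, with no overlap. Its fall had a standard error of 0.12 (limma adjusted p = 0.031). The call was lost without control replicate 1 (adjusted p = 0.089), control replicate 3 (0.1), RASv12 replicate 2 (0.1) or RASv12 replicate 3 (0.074), and the change was -0.15 (adjusted p = 0.45) with arrays scaled to the hybridization controls. CAD read 130, 141 and 138 in control cells and 115, 100 and 116 in RASv12 cells, which do not overlap. Its log2 change was -0.24, with a 95% interval from -0.47 to -0.02 and limma adjusted p = 0.12, and 0.03 with that scaling.

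Hybridization controls, bacterial and phage transcripts added to each sample, read lower on RASv12 arrays (mean log2 7.73 to 7.87) than on control arrays (8.13 to 8.17). Scaling to them moved the median of all named genes from 0.02 to 0.20 and the calls from 1769 lower and 1550 higher to 1015 lower and 2682 higher. With it 7 of the 9 genes fell, beside 8.48% of all genes, at a median of -1.32. The gene that lost its call was IMPDH2. The part of this offset in the results was not tested.

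Each of 4 members was set against a partner or parallel enzyme on the same array, and an exact two-sided permutation test over arrays was run on the difference of log2 values. With 3 arrays against 3 the smallest p is 0.1, and all 4 pairs gave 0.1, also after Benjamini-Hochberg adjustment over the 4. The other planned pairs were not analysed here. RRM2 stood at 0.75 ± 0.2 (SD, n = 3) over RRM1 in control cells and at -0.01 ± 0.43 in RASv12 cells, a change of -0.76. All 3 RASv12 values lay below all control values. The size depended on the probe sets: it was -0.12 (exact permutation p = 0.9) with the other RRM2 probe set, -1.21 with the other RRM1 probe set and -0.56 (exact permutation p = 0.2) with both.

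IMPDH2 stood at 3.3 ± 0.15 (SD) over IMPDH1, its close relative, in control cells and at 2.24 ± 0.25 in RASv12 cells, a change of -1.06. IMPDH1 itself read 103, 102 and 112 in control cells and 180, 180 and 134 in RASv12 cells. It rose by 0.58 ± 0.13 (limma adjusted p = 0.022), a call that was lost without control replicate 1, 2 or 3 or RASv12 replicate 1 or 2.

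The mitochondrial kinases TK2 and DGUOK, which salvage deoxynucleosides outside S phase, were the partners of TK1 and DCK. On its brightest probe set TK2 read 59.6, 49.4 and 48.5 in control cells and 49.8, 48.7 and 50.8 in RASv12 cells, a log2 change of 0 with a 95% interval from -0.24 to 0.25 (limma adjusted p = 0.99). TK1 minus TK2 changed by -2.31. Since TK1 averaged under the low bacterial controls in RASv12 cells, this value depends on the pseudocount, and was -2.83 at 1 and -1.52 at 64. The probe sets of TK2 disagreed, since another read 69.5, 94.8 and 77.6 against 23.9, 36 and 31.3 and fell by 1.01 ± 0.14 (adjusted p = 0.0026). Against that probe set TK1 changed by -1.30, with the same limit. The remaining probe set was within the low bacterial controls on all RASv12 arrays, where TK1 also averaged under them, and is not set against it. DGUOK had a log2 change of -0.12 (95% interval -0.4 to 0.16, adjusted p = 0.54), and DCK minus DGUOK changed by -0.53, or by -0.34 with the other DGUOK probe set and by -0.23 with exact p = 0.2 at a pseudocount of 64. DCK also averaged under the low bacterial controls in RASv12 cells.

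**Figure D3:**
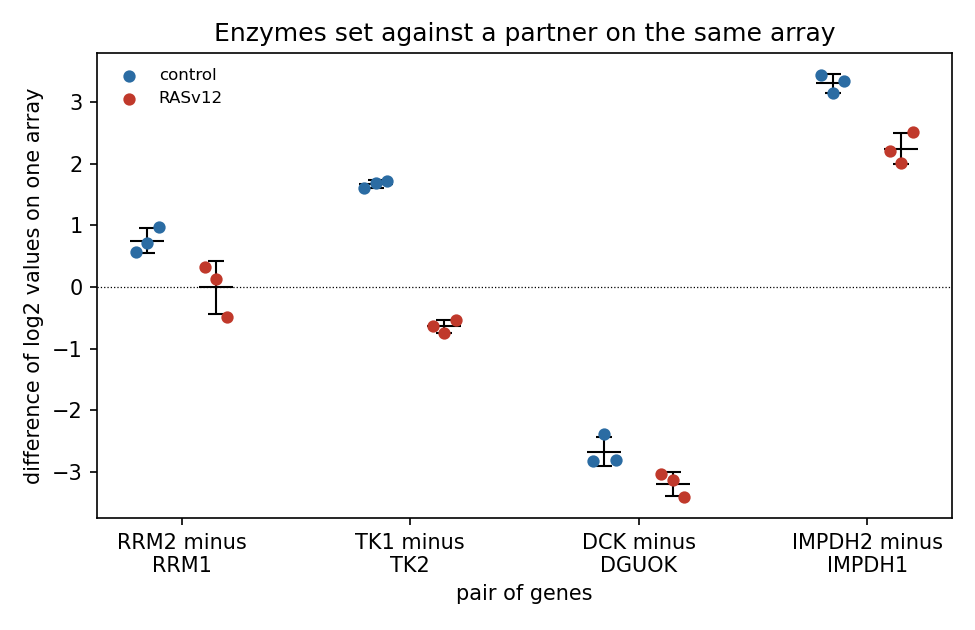
Difference of log2 values between a gene and its partner on each of the 3 control arrays (blue) and 3 RASv12 arrays (red), with mean and SD in black. In each of the 4 pairs the RASv12 values lie below the control values, by 2.31 for TK1 minus TK2 and by 0.53 for DCK minus DGUOK, each gene on its brightest probe set.

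The wider pathway was described through 8 lists of other nucleotide genes, of which 64 were measured. Of these 19 rose and 7 fell, while 38 had no call, beside 14.8% of all named genes lower and 13.0% higher, with a median log2 change of 0.13. Among those with no call, 7 were below the low bacterial controls on all arrays. For these 7 the lack of a call does not show that expression was unchanged. The numbers changed without control replicate 2, to 7 lower and 10 higher, beside 11.6% and 9.51% of all named genes. Without control replicate 3 they were 4 and 11, beside 10.7% and 8.75%. Without RASv12 replicate 2 they were also 4 and 11, beside 11.0% and 9.45%. Median centring gave 4 lower and 19 higher, beside 13.6% and 12.7%. A pseudocount of 1 gave 4 and 12, beside 11.1% and 9.39%, and the replicate block 4 and 12, beside 11.0% and 8.86%. Scaling to the hybridization controls gave 3 lower and 27 higher, beside 8.48% and 22.4%. The calls of 9 of the 19 and of 2 of the 7 were kept in all 17 alternatives. The 9 were PPAT, CTPS1, ADK, UPP1, TYMP, PNP, AK4, AMPD3 and SLC29A1, and the 2 were NT5C2 and NUDT1.

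**Figure D4:**
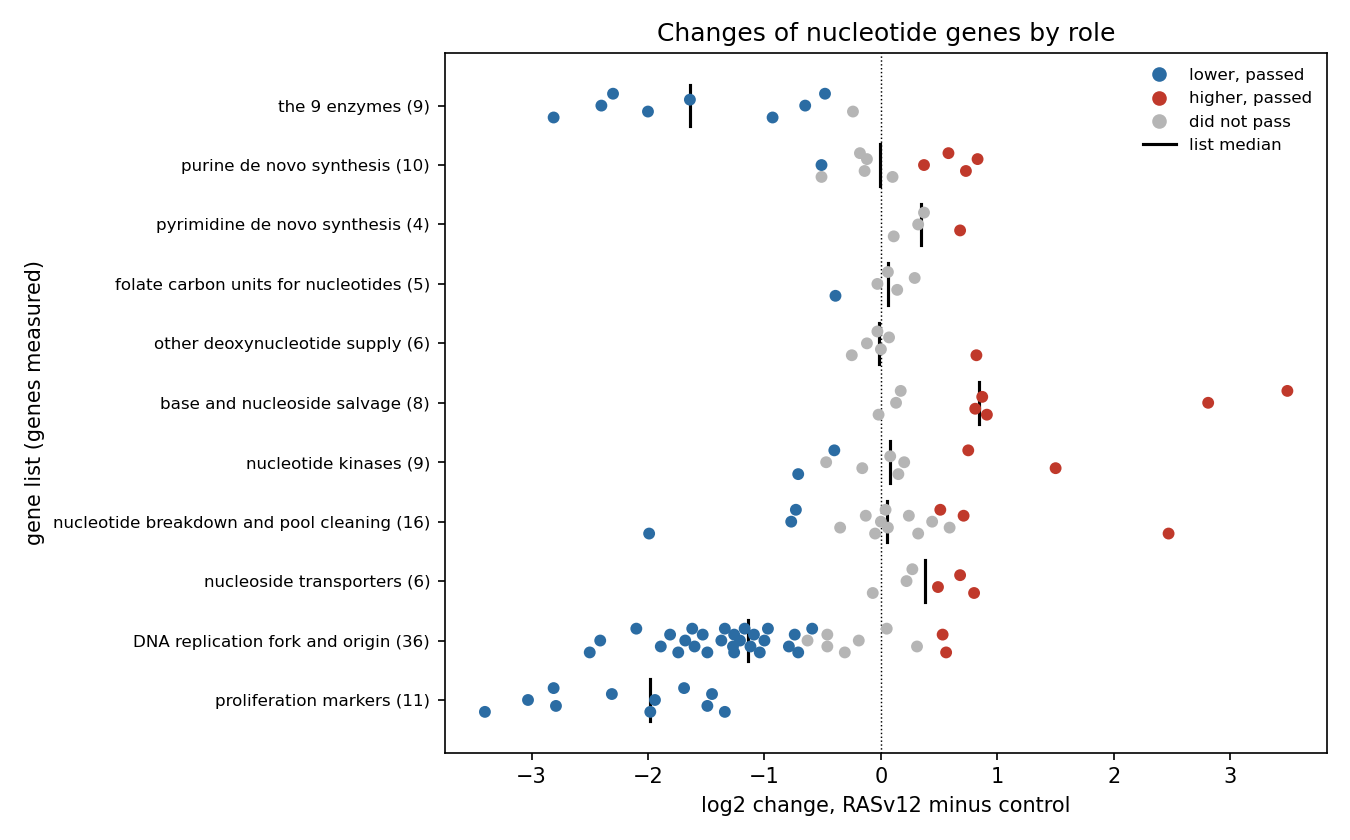
Log2 change (RASv12 minus control) of each measured gene by list, blue where lower and red where higher with adjusted p under 0.05, grey otherwise, and black bars at list medians. The medians of the 9 enzymes, the replication genes and the proliferation markers lie to the left of 0, at -1.64, -1.14 and -1.98, and that of base and nucleoside salvage to the right, at 0.84.

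Base and nucleoside salvage held the largest rises. Of 8 measured genes 5 rose and none fell, with a median of 0.84, beside 13.0% of all named genes higher and 14.8% lower. PNP, which splits purine nucleosides into base and sugar phosphate, read 50, 47.8 and 54.4 in control cells and 694, 669 and 823 in RASv12 cells. It rose by 3.49 ± 0.13 (limma adjusted p = 1.1e-05), and the groups lay far apart. UPP1, which splits uridine, read 41.1, 23.5 and 38 against 382, 303 and 320 and rose by 2.81 ± 0.16 (adjusted p = 5.3e-05). ADK, the adenosine kinase, rose by 0.81 ± 0.084 (adjusted p = 7.8e-04) and TYMP, the thymidine phosphorylase, by 0.87 ± 0.13 (adjusted p = 0.0043). Dimmer probe sets of ADK and TYMP, below the low bacterial controls on all control arrays, did not pass (limma adjusted p = 0.13 and 0.87). CDA, the cytidine deaminase, was called higher (adjusted p = 0.037), but with 1 of its 6 values above the low bacterial controls no fold can be given, and the call was lost without control replicate 1, 2 or 3 or RASv12 replicate 2. HPRT1 and APRT, the purine base salvage enzymes, did not pass, at 0.13 and 0.17. Both were called higher with scaling to the hybridization controls, as were 22.4% of all named genes.

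Of 10 genes of de novo purine synthesis measured beside IMPDH2, 4 rose, 1 fell and 5 had no call (median -0.01), beside 13.0% of all named genes higher and 14.8% lower. PPAT, the committed step of the purine route, read 68.6, 72.4 and 61.5 in control cells and 135, 118 and 131 in RASv12 cells, a rise of 0.83 ± 0.098 (limma adjusted p = 0.0014). A dimmer PPAT probe set, at 0.74, overlapped between groups and did not pass (limma adjusted p = 0.13). GART, which carries several steps of the route, rose by 0.73 ± 0.16 and ATIC, which carries the closing steps, by 0.37 ± 0.087, with adjusted p = 0.019 and 0.024. Both lost their calls without control replicate 2 or 3 or RASv12 replicate 2 or 3, and ATIC also without RASv12 replicate 1. A second GART probe set rose by 1.16 ± 0.16 (limma adjusted p = 0.0028). The remaining GART probe sets, near or under the low bacterial controls, did not pass. PRPS1, which makes the ribose phosphate donor, fell by 0.51 ± 0.12 (adjusted p = 0.022). It was not called without control replicate 2 or 3 or RASv12 replicate 2, or with scaling to the hybridization controls. The other PRPS1 probe set, at -0.32, did not pass (limma adjusted p = 0.097). Of 4 pyrimidine genes beside CAD, CTPS1, which makes CTP from UTP, rose by 0.68 ± 0.1 (adjusted p = 0.0043), and DHODH, UMPS and CTPS2 did not pass, at 0.37, 0.32 and 0.11.

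Folate enzymes, which supply carbon units for purines and thymidylate, had 1 of 5 lower, beside 14.8% of all named genes. The other 4 did not pass, and of these SHMT1 and ALDH1L1 were below the low bacterial controls on all arrays. MTHFD1 fell by 0.39 ± 0.091 (limma adjusted p = 0.021), a call lost without control replicate 1, 2 or 3 or RASv12 replicate 2 or 3. The mitochondrial SHMT2 and MTHFD2 were at 0.06 and 0.29. In the list of other deoxynucleotide genes 1 of 6 rose, beside 13.0% of all named genes. It was the glutaredoxin GLRX, a hydrogen donor of ribonucleotide reductase, at 0.82 ± 0.22 (adjusted p = 0.035). That call was lost without control replicate 2 or RASv12 replicate 1, 2 or 3. The other GLRX probe set rose by 1.0 ± 0.13 (limma adjusted p = 0.0019). The donor TXN, at -0.03, and the dCMP deaminase DCTD, at 0.07, did not pass on their brightest probe sets. A second DCTD probe set read 349, 383 and 397 in control cells and 284, 265 and 319 in RASv12 cells and fell by 0.39 (adjusted p = 0.044).

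Among 9 nucleotide kinases 2 rose, 2 fell and 5 had no call, beside 13.0% higher and 14.8% lower over all named genes. AK4, a mitochondrial adenylate kinase, read 29.4, 21.1 and 24.5 in control cells and 91.4, 97 and 103 in RASv12 cells. It was at least 3.41-fold higher (limma adjusted p = 9.3e-05), with 1 of 3 control arrays above the low bacterial controls. Another AK4 probe set, below those controls on all arrays, did not pass (limma adjusted p = 0.068). AK6 rose by 0.75 ± 0.19 (adjusted p = 0.029), lost without control replicate 2 or 3 or RASv12 replicate 2. NME4, a mitochondrial nucleoside diphosphate kinase, fell by 0.71 ± 0.12 (adjusted p = 0.0067), a call not made once arrays were scaled to the hybridization controls. AK1 fell by 0.4 ± 0.1 (adjusted p = 0.028), a call lost with that scaling, with the mean of its probe sets and without control replicate 1 or 3 or RASv12 replicate 2 or 3. Its other probe set was at 0.31 (adjusted p = 0.36).

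Of 16 genes for nucleotide breakdown and pool cleaning 3 rose, 3 fell and 10 had no call, which is close to the 13.0% higher and 14.8% lower over all named genes. Among those with no call, 4 (NT5M, AMPD1, DPYS and UPB1) were below the low bacterial controls on all arrays. AMPD3, an AMP deaminase, read 77.1, 81.7 and 83.3 in control cells and 571, 513 and 453 in RASv12 cells, a rise of 2.47 ± 0.1 (limma adjusted p = 1.7e-05). SAMHD1, which breaks down deoxynucleoside triphosphates, read 36.4, 23.5 and 19.4 against 59.4, 45.7 and 50.1, at least 1.68-fold higher (adjusted p = 0.022), with 1 of 3 control arrays above the low bacterial controls. That call was lost without control replicate 2 or 3 or RASv12 replicate 1. ITPA, which clears inosine triphosphates, rose by 0.51 ± 0.1 (adjusted p = 0.014), a call lost without control replicate 3.

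NUDT1, which clears oxidized purine triphosphates, read 65, 91.6 and 86.8 in control cells and 19.6, 4.13 and 1.73 in RASv12 cells, all of the latter within the low bacterial controls. It was at least 2.87-fold lower (limma adjusted p = 0.0043). The nucleotidase NT5C2 fell by 0.73 ± 0.11 (adjusted p = 0.0046). DPYD, which breaks down uracil and thymine, was called lower (adjusted p = 0.0029) with 1 of 6 arrays above the low bacterial controls, and no fold can be given. Of 6 nucleoside transporters 3 were called higher, beside 13.0% of all named genes. Of those not called, SLC29A2 was below the low bacterial controls on all arrays. SLC29A1, the equilibrative carrier, read 39, 40.2 and 44.5 against 73, 74.4 and 68.7 and rose by 0.68 ± 0.097 (adjusted p = 0.0032). The concentrative carriers SLC28A2 and SLC28A3 were also called (adjusted p = 0.033 and 0.031). For SLC28A2, with 1 of 6 arrays above the low bacterial controls and its other probe set at -0.05, no fold can be given, and SLC28A3 was at least 1.33-fold higher. Both calls were lost without control replicate 2 or RASv12 replicate 2, SLC28A2 also without control replicate 1 or RASv12 replicate 1 and SLC28A3 also without control replicate 3 or RASv12 replicate 3.

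The replication machinery that uses the deoxynucleotides fell alongside. Of 36 fork and origin genes 27 fell and 2 rose (median -1.14), beside 14.8% of all named genes lower and 13.0% higher. The helicase subunits MCM6 and MCM5 went from 305 ± 18.6 to 40.8 ± 4.6 and from 224 ± 5.86 to 39.2 ± 1.25 (mean and SD of intensity, n = 3), falls of 2.5 and 2.1 by limma. RFC4, a clamp loader subunit, fell by 1.49. The 2 that rose were RPA2 (0.56, adjusted p = 0.027) and RFC5 (0.53, adjusted p = 0.049), and neither passed at a pseudocount of 1 or without control replicate 2 or 3 or RASv12 replicate 2 or 3. All 11 proliferation markers fell, with a median of -1.98 and a summed intensity of 2622 to 2851 on control arrays against 416 to 454 on RASv12 arrays. The cyclin gene CCNB1 went from 433 ± 21 to 73.9 ± 7.9 (mean and SD, n = 3), a fall of 2.31. The part of these markers in the falls of the 9 enzymes was not tested. In bulk RNA, fewer cells of a kind and less RNA per cell cannot be told apart. Of 18 measured transcription factors of S phase genes 3 fell, 1 rose and 14 had no call (median -0.24), beside 14.8% of all named genes lower and 13.0% higher. FOXM1 was at least 9.59-fold and MYBL2 at least 3.43-fold lower, with all RASv12 arrays within the low bacterial controls, and TFDP1, the partner of E2F proteins, fell by 0.5 (limma adjusted p = 0.011). MYC rose by 1.74 ± 0.13 (adjusted p = 1.7e-04). E2F1 (-0.15, adjusted p = 0.47), the other measured E2F genes, RB1 and the NF-Y genes had no call. E2F2, E2F8 and RBL1, which also had no call, were below the low bacterial controls on every array and E2F5 on all but 1. E2F1 was close to them, at 38.3, 34.8 and 35.9 against 21.3, 29.5 and 41.9. For these dim genes the lack of a call does not show that expression was unchanged.

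The 5 genes outside the list whose profile over the 6 arrays was most like the mean of the 9 were NOTCH2NLA, THY1, BLVRB, TMEM47 and PSIP1, with Pearson r from 0.9980 to 0.9987 among 7315 genes ranked. With 3 arrays in each of 2 groups, this likeness is set mainly by the gap between groups. PSIP1, a chromatin-tethering protein, read 241, 228 and 220 in control cells and 32.4, 29.3 and 37.4 in RASv12 cells. THY1, a fibroblast surface protein, read 760, 711 and 744 against 291, 217 and 216.

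Signal above the low bacterial controls was seen for 48.6% to 54.1% of the probe sets of an array. Arrays correlated at 0.975 to 0.987 within groups and at 0.912 to 0.928 between them. All 10 fibroblast markers were above those controls on all arrays, while 8 of them fell, beside 14.8% of all named genes. The summed intensity of these markers was 22772 to 25198 in control and 11162 to 13492 in RASv12 cells. Epithelial markers summed to 64.8 to 67.4 and 32.2 to 54.9 with 4 of 5 below the controls on all arrays, endothelial markers to 102 to 128 and 47.2 to 99.8 with 3 of 5 below, and leukocyte markers to 6.94 to 28 and 17.8 to 49.9 with 2 of 3 below. EPCAM, CDH1, KRT5, KRT14, VWF, CDH5, KDR, PTPRC and CD14 were below on every array. KRT8 was above on 2 control arrays at 31.2 and 31.9, PECAM1 on 1 RASv12 array at 51.1 and CD3E on 2 RASv12 arrays at 28.2 and 36.9. The endothelial receptor gene TEK was above them on all control arrays and called lower. The labels do not name separate cultures for the arrays of a group, and p-values therefore measure how far these samples spread, which may reflect technical differences alone.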

How the data were processed

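Total RNA of 6 samples, 3 per group, was amplified in 2 rounds and labelled with whole-transcript kits, per the labels' protocols. The authors deposited 1 linear intensity for each probe set and array, made with MAS5 per the submitters' processing notes, which name no version. The trimmed mean was 100 on each array.

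Of 22283 probe sets, 68 controls were left out. Symbols came from the platform annotation, updated by gene identifier to RefSeq (GRCh38.p14). Of the 22215 tested, 19065 had 1 symbol, 1043 several and 2107 none, and the last 2 kinds stayed unnamed. Intensities were transformed as log2(value + 16), quantile normalized and tested with limma 3.58.1 (lmFit, eBayes) in R 4.3.3, adjusted by Benjamini-Hochberg over all probe sets, with a threshold of 0.05. The probe set with the highest mean represents a gene. The fit was tested on simulated data. The highest of 27 low bacterial control probe sets, 27.98, marked background, and "at least" folds raise dimmer values to it, also where only a group's mean lay under it. The number of arrays limits the precision. Counts of calls for lists have no set test. Some planned genes were not analysed here.

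The rule for named genes was all members with every probe set, the partners of the pairs, for each list up to 5 called genes by size of moderated t and the exceptions to a list's direction, and the 5 genes with the highest Pearson correlation with the members' mean scaled profile among genes above background on at least 3 arrays. Further genes of the lists were named after their values were seen. The members, lists and tests were chosen with earlier results of these data known.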

Additional observations from a re-analysis of the deposited data

How the results depend on the processing

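The count of the 9 enzymes called lower was 8 and ran from 7 to 9 over the 17 alternatives, and from 7 to 8 when each array was left out. The share of all genes called lower ran from 8.48% to 24.7% over the 17 alternatives, and from 10.7% to 13.4% with an array left out. TYMS, RRM2, TK1, DUT, RRM1, DTYMK and DCK kept direction and call in all 17. TYMS ranged from -2.91 to -1.63, TK1 from -2.82 to -1.51 and DCK from -0.9 to -0.34, the ends for TK1 and DCK coming with pseudocounts of 1 and 64. CAD reversed to 0.03 with scaling to the hybridization controls and was called lower with a pseudocount of 64 (-0.18, limma adjusted p = 0.046). IMPDH2 lost its call in 7 alternatives, among them median centring (-0.45, adjusted p = 0.073), scaling to the hybridization controls (-0.15) and a pseudocount of 1 (-0.49, adjusted p = 0.091). The other nucleotide genes called lower were 7, beside 14.8% of all genes. They were 4 with median centring (beside 13.6%), 3 with scaling to the hybridization controls (beside 8.48%) and 4 with a pseudocount of 1 (beside 11.1%). With an array left out they were 4 to 8, beside 10.7% to 13.4%. Other nucleotide genes called higher were 19, beside 13.0% of all genes. They were 12 with a pseudocount of 1 (beside 9.39%) and 10 to 17 with an array left out (beside 8.75% to 12.1%). Leaving out an array also makes the sample smaller, and the cause of the changes in these counts was not tested in any setting. Adjustment over 1 probe set per gene, and the other probe sets of genes in pairs, were alternatives chosen after seeing the data. With the replicate number as a block, 8 of the 9 enzymes were lower, and the other nucleotide genes had 4 lower and 12 higher. All genes had 11.0% lower and 8.86% higher in that setting. Deviations of same-numbered arrays correlated at -0.226, -0.028 and -0.07. With 3 arrays in each group, these values cannot show whether same-numbered arrays share a culture or batch. Values near the low bacterial controls limit TK1, DCK and several list genes to bounds.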
